A study of Mus musculus with 6 samples.

Results

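The genes described here are 30 mouse genes of B cells and of the plasma cells that B cells become, followed in pancreatic islets around the day. They were chosen by name as B lineage genes, and 28 of the 30 were measured among the 24127 genes and unnamed transcripts tested, which are called all genes here. Gene expression was read on 6 one-colour arrays, with 1 array of pooled RNA at each of ZT0, ZT4, ZT8, ZT12, ZT16 and ZT20 (zeitgeber time in hours, counted from the start of the light phase, with the dark phase from ZT12). The mice of all 6 pools were C57BL6 males of 8 weeks on a chow diet, in a cycle of 12 h light and 12 h dark. The labels name no treatment and no transgene. Each pool held RNA from 3 to 5 mice, so the spread between mice cannot be seen, and each time point was 1 sample. Islets, the endocrine clusters of the pancreas, were isolated with collagenase. The endocrine genes Ins1, Ins2, Gcg, Sst and Ppy were well above background on all 6 arrays.

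B cells carry an antigen receptor in which a membrane immunoglobulin is held by the signalling chains CD79A and CD79B. Kinases and adaptors pass the signal on, and inhibitory co-receptors hold it back. Resting B cells gather in follicles of lymph nodes and spleen, guided by the chemokine receptor CXCR5, and some become plasma cells, which secrete antibody. Healthy islets hold few B cells. In RNA of bulk tissue, fewer cells of a type and less RNA per cell cannot be told apart.

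A single scan read the 4 arrays from ZT8 to ZT20. ZT4 was scanned on its own on the same day, and ZT0 on its own on a later day. The share of spots well above background ran from 66.1% (ZT4) to 84.4% (ZT0), and 0 spots were saturated. Outlier spots numbered 1743 at ZT0, while 166 to 247 were marked at the other times. Over probes printed 10 times, the median SD between spots of 1 array was 0.05 to 0.09 log2 units. This covers spot-to-spot error alone. The number of arrays limits the precision.

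Levels are given as log2 of the processed signal minus the array's 75th percentile, so that 0 is the 75th percentile of an array and 1 unit is a 2-fold difference. The 75th percentile was a processed signal of 505.5 at ZT4, and on the other arrays from 1228.8 (ZT16) to 2090.1 (ZT8). The ZT4 array was thus the dimmest. A level compares the arrays for 1 probe and is not comparable between genes. Of the 28 measured genes, 25 were well above background on all 6 arrays. The exceptions were Cd180, Blk and Ebf1. The other 2 genes, Vpreb3 and Prdm1, had an outlier spot on the ZT0 array and were left out of the tests.

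Most B cell genes shared 1 order of the arrays. ZT4 and ZT12 were the high arrays, ZT0 and ZT8 lay between, and ZT16 and ZT20 were the low ones. The median of the 28 genes, each taken relative to its own mean over the 6 arrays, was 0.52 (ZT0), 1.79 (ZT4), 0.57 (ZT8), 1.79 (ZT12), -2.52 (ZT16) and -2.36 (ZT20). The medians over all genes stayed between -0.03 and 0.06. ZT16 and ZT20 were the 2 lowest arrays for 23 of the 28 genes, against 16.4% of all genes. The remaining genes, Cd79a, Blk, Fcer2a, Pax5 and Tnfrsf13b, were dim, with mean levels from -4.95 (Blk) to -1.65 (Fcer2a). Every measured gene of higher mean level had ZT16 and ZT20 lowest, and so did Siglecg, Cd180 and Ebf1, which were as dim. Whether dim signal bears on the exceptions was not tested. ZT4 and ZT12 were the 2 highest for 20 of the 28, against 21.3% of all genes, and 20 showed both orders, against 9.4% of all genes. Of the 10 measured members listed here as shared with cells outside the B lineage, all 10 had ZT16 and ZT20 lowest. Of the 18 listed under the B lineage, 13 did, a difference that was not tested. Whether other cells also express some of the 18 was not tested.

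**Figure D1:**
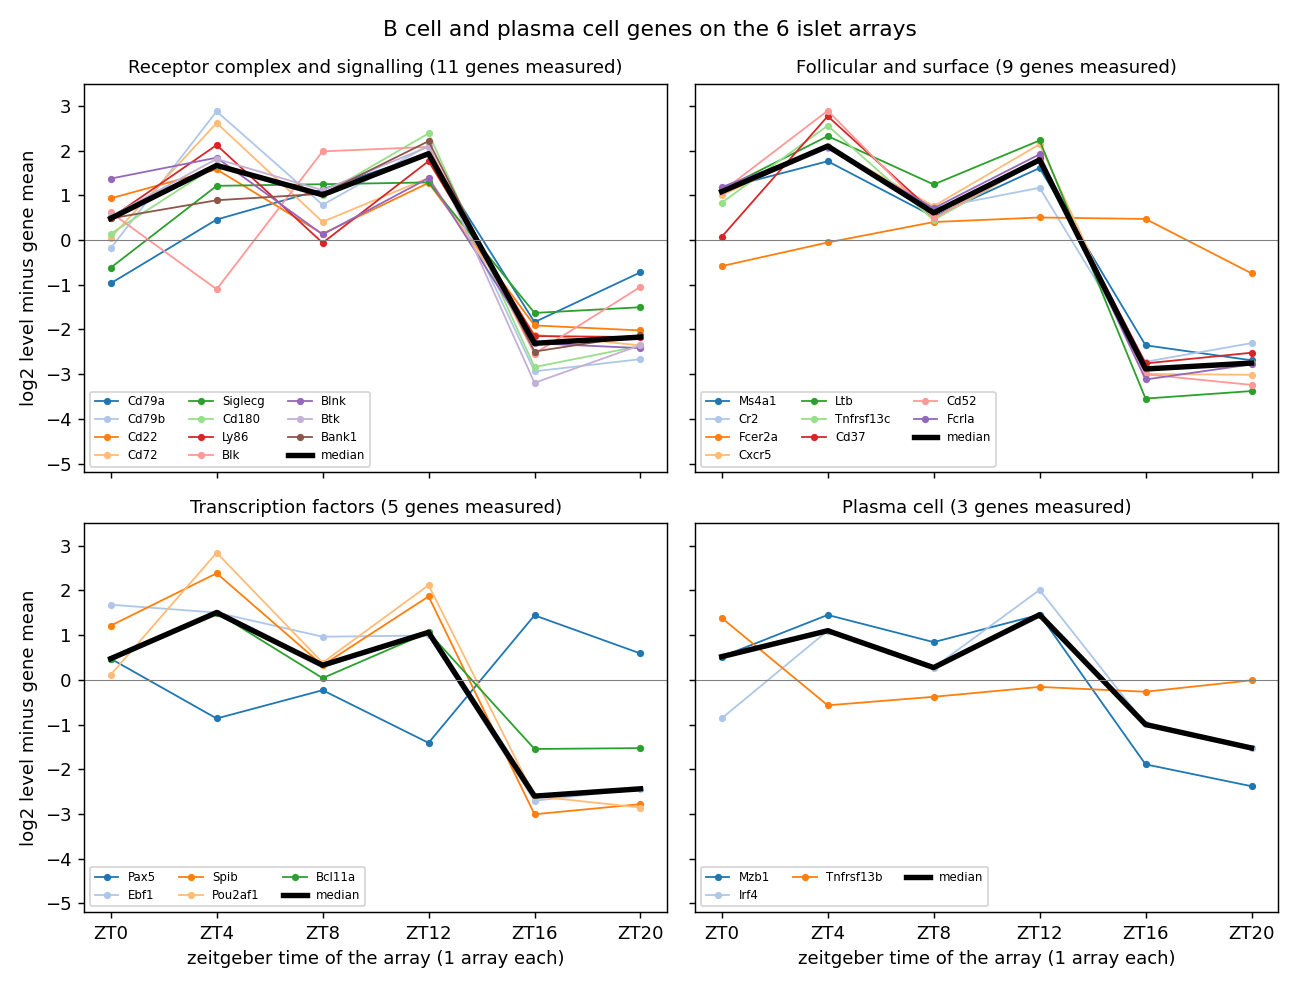
Log2 level of each measured gene minus its own mean over the 6 arrays (vertical axis, log2 units) on each array (horizontal axis, zeitgeber time), in 4 panels by role, with the median of each panel in black and no error bars because each time point is 1 array. Nearly all lines lie below 0 on the ZT16 and ZT20 arrays, and Pax5, Fcer2a and Tnfrsf13b run differently.

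Among the genes of the receptor complex, Cd79b, the second signalling chain, had levels of 3.31 (ZT0), 6.38 (ZT4), 4.29 (ZT8), 5.62 (ZT12), 0.56 (ZT16) and 0.83 (ZT20). Its ZT4 level was 56.4-fold its ZT16 level, and both dark-phase arrays stood far below the other 4. Cd79a, the partner chain, had -3.53, -2.10, -1.43, -0.63, -4.40 and -3.28 in the same order of arrays. It was highest at ZT12, 13.6-fold over ZT16, but its ZT0 level lay below its ZT20 level, so its order differed from that of its partner.

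Co-receptors and accessory receptors had their lowest levels at ZT16 and ZT20. Cd22, an inhibitory lectin of B cells, had 1.22 (ZT0), 1.86 (ZT4), 0.42 (ZT8), 1.56 (ZT12), -1.63 (ZT16) and -1.74 (ZT20). Its 4 earlier arrays all lay above both later ones, with 12.2-fold between ZT4 and ZT20. Ly86, which encodes MD-1, the partner of CD180, had 3.11, 4.75, 2.56, 4.39, 0.47 and 0.45, a difference of 19.7-fold between ZT4 and ZT20. Cd180 itself, a receptor related to the toll-like receptors, had -4.19, -2.67, -3.32 and -1.95 from ZT0 to ZT12, and its spots on the last 2 arrays did not clear background. It was therefore at least 9.37-fold higher at ZT12 than at ZT16. Cd72, an inhibitory co-receptor, differed by 31.5-fold between ZT4 and ZT20. Siglecg, an inhibitory lectin of B cells, had -3.28 (ZT0), nearly equal levels of -1.45 (ZT4), -1.41 (ZT8) and -1.37 (ZT12), and then -4.29 (ZT16) and -4.16 (ZT20). The 3 arrays from ZT4 to ZT12, between which most other members were lower and then higher, were thus level for Siglecg.

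The signalling genes downstream were likewise low at ZT16 and ZT20. Blnk, the adaptor that links the receptor to phospholipase C, had 4.31 (ZT0), 4.78 (ZT4), 3.06 (ZT8), 4.32 (ZT12), 0.63 (ZT16) and 0.52 (ZT20). Btk, the Bruton tyrosine kinase, had -0.70, 0.59, -0.11, 0.86, -4.42 and -3.58, with 38.9-fold between ZT12 and ZT16. Bank1, a scaffold protein of B cells, had 0.40, 0.81, 0.95, 2.13, -2.58 and -2.21. Both were highest at ZT12 and low on both dark-phase arrays that followed. Blk, a kinase of the Src family, had -4.33 (ZT0), -2.97 (ZT8) and -2.87 (ZT12), while its spots at ZT4, ZT16 and ZT20 did not clear background. Blk was thus low on the ZT4 array, where most other receptor genes were high. Its ZT12 level was at least 4.96-fold over ZT16. Vpreb3, a chaperone of immunoglobulin chains in B cells, had usable spots on 5 arrays, at 4.18 (ZT4), 1.78 (ZT8), 3.35 (ZT12), -1.94 (ZT16) and -1.19 (ZT20), the order of Cd79b.

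Several members encode factors that act on B cell promoters, so the RefSeq windows of 250 bases before to 50 after the gene start (GRCm38.p6) were read for 3 motifs on both strands. These were the octamer ATTTGCAT, to which OCT factors bind with the coactivator that Pou2af1 encodes, the EBF1 core (TCCC, any 2 bases, GGGA), and the ETS core GAGGAAGT, which fits PU.1 and SPI-B. Windows were given for 24 of the 30 genes, 29 windows in all. The octamer stood in 2 of the 29 and in 1.74% of all 32851 windows, the EBF1 core in 1 and in 0.904%, and the ETS core in 2 and in 3.20%. No window held more than 1 of the motifs. Shown are 4 of the 5 windows with a match, 1 gene per line, all of receptor genes, with the match in capitals (a match to the opposite strand appears as its reverse complement). They are Blnk (chr19:40994172-40994471, minus strand), Vpreb3 (chr10:75948050-75948349, plus strand), Cd22 (chr7:30878979-30879278, minus strand) and Cd72 (chr4:43454577-43454876, minus strand). Cd37 held the other ETS match. A match is a description of letters and not a binding site.
Blnk window: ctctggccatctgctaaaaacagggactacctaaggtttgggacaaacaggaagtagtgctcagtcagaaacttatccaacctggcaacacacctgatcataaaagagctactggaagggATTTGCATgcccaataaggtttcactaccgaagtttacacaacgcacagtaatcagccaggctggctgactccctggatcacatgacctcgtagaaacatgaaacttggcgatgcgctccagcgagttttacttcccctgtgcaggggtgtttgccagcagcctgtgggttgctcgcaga
Vpreb3 window: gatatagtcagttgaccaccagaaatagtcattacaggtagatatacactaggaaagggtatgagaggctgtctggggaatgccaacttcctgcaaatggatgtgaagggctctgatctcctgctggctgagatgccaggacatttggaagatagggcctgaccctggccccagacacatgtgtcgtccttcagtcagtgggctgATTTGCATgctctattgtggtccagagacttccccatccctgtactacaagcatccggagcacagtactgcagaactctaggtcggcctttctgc
Cd22 window: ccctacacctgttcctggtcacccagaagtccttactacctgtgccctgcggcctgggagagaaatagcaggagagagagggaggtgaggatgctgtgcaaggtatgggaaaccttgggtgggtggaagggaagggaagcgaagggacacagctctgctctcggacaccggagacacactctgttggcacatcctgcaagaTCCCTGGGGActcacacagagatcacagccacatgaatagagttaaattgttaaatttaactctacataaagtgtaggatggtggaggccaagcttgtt
Cd72 window: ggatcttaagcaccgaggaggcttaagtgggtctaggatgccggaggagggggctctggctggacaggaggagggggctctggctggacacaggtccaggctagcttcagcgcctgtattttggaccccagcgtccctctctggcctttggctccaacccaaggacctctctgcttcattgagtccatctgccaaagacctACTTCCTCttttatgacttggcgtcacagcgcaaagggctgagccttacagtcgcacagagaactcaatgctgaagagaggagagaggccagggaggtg

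All 4 of these genes were highest at ZT4 among their usable arrays, and each was lower at ZT16 and ZT20 than on any other usable array. Cd37, with the other match, was likewise highest at ZT4 and lowest at ZT16 and ZT20. Ly86, whose given window held no match, was also highest at ZT4 and lowest on those 2 arrays. Highest at ZT4 were 15 of the 28 measured genes and 5638 of all 24127 genes. ZT16 and ZT20 were lowest for 23 of the 28, against 16.4% of all genes. Whether a match goes with this order was not tested.

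The follicular and surface genes included Cd52, with the largest fold of the 28 genes between its highest and lowest arrays. Cd52, a small surface glycoprotein that T cells share, had 5.73 (ZT0), 7.54 (ZT4), 5.14 (ZT8), 6.43 (ZT12), 1.64 (ZT16) and 1.41 (ZT20), or 70.3-fold between ZT4 and ZT20. Ltb, lymphotoxin beta, which follicles need and T cells also make, had 3.79, 4.99, 3.91, 4.89, -0.88 and -0.72, or 58.6-fold between ZT4 and ZT16. For both, the 2 last arrays stood more than 3 units below every other array.

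Cd37, a tetraspanin of B cells, had 2.73 (ZT0), 5.43 (ZT4), 3.26 (ZT8), 4.48 (ZT12), -0.11 (ZT16) and 0.13 (ZT20). Ms4a1, which encodes CD20, had 2.96, 3.57, 2.33, 3.42, -0.55 and -0.88. Cxcr5, the follicle homing receptor, had 1.36, 2.46, 1.12, 2.50, -2.64 and -2.66, and its ZT12 and ZT4 levels were nearly equal. These 3 genes differed by 46.2-fold, 21.9-fold and 35.7-fold between their highest and lowest arrays. Tnfrsf13c, the receptor for the survival factor BAFF, Fcrla, a relative of Fc receptors, and Cr2, complement receptor 2, all had ZT4 as their highest and ZT16 as their lowest array, with 43.5-fold, 36.9-fold and 27.4-fold between them.

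Fcer2a, the low-affinity IgE receptor CD23 of follicular B cells, did not follow. It had -2.23 (ZT0), -1.70 (ZT4), -1.24 (ZT8), -1.14 (ZT12), -1.18 (ZT16) and -2.39 (ZT20). Its highest and lowest arrays differed by 2.38-fold, the smallest difference of the 28 genes, and its ZT16 level was among its highest. It was the exception among 9 follicular genes, of which the other 8 had ZT16 and ZT20 as their lowest arrays.

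Among the transcription factors, Pou2af1, the octamer coactivator, had 2.80 (ZT0), 5.53 (ZT4), 3.07 (ZT8), 4.81 (ZT12), 0.09 (ZT16) and -0.17 (ZT20). Spib, an ETS factor, had 3.73, 4.90, 2.84, 4.38, -0.49 and -0.27. They differed by 52.0-fold and 42.0-fold between highest and lowest arrays, and both dark-phase arrays lay below the other 4. Bcl11a, a zinc finger factor of early B cells that other tissues also use, had 1.40, 2.44, 0.97, 2.0, -0.61 and -0.59, in the same order but with 8.30-fold in all. Ebf1, which commits cells to the B lineage and is also made in fat and stromal cells, had -0.85, -1.02, -1.56 and -1.54 from ZT0 to ZT12 and -4.97 (ZT20), and its ZT16 spot did not clear background. Its highest array was ZT0, at least 20.1-fold over ZT16, and it did not differ by 2-fold among the 4 earlier arrays.

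Pax5, the factor that maintains B cell identity, ran the other way on the 1 probe that was read, which was dim (mean level -2.22). Its level was -1.74 (ZT0), -3.08 (ZT4), -2.45 (ZT8), -3.63 (ZT12), -0.77 (ZT16) and -1.63 (ZT20). It was highest at ZT16 and lowest at ZT12, with 7.23-fold between them. The second Pax5 probe was well above background on 0 arrays, so it gave no second reading. The probe that was read showed ZT16 above ZT12 in all 9 processing settings tried. These settings reprocess the same spot of each array and are no further reading.

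Of the plasma cell genes, Mzb1 and Irf4 followed the B cell genes and Tnfrsf13b and Prdm1 did not. Mzb1, a chaperone of immunoglobulin assembly, had 0.98 (ZT0), 1.92 (ZT4), 1.31 (ZT8), 1.92 (ZT12), -1.43 (ZT16) and -1.92 (ZT20). Its probe was printed 10 times, and the SD over the spots of 1 array was 0.02 to 0.24 log2 units, and its ZT16 level differed from its ZT12 level by -3.35. Irf4, which drives the plasma cell programme and also acts in T cells, had -1.43, 0.53, -0.30, 1.44, -1.57 and -2.10. Its ZT0 level lay close to its ZT16 level.

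Tnfrsf13b encodes TACI, a receptor for BAFF and APRIL. Its level was -1.13 (ZT0) and between -3.08 and -2.52 on the other 5 arrays, which differed little among themselves. Prdm1, which encodes BLIMP-1, the repressor that fixes plasma cell fate, had -1.79 (ZT4), -1.19 (ZT8), -1.06 (ZT12), -0.75 (ZT16) and -0.63 (ZT20), with the ZT0 spot set aside. Of these arrays Prdm1 was highest at ZT20, but its ZT16 level differed from its ZT12 level by only 0.31, within 2-fold. The medians of the 3 measured plasma cell genes were 0.52, 1.1, 0.27, 1.46, -1.0 and -1.53 from ZT0 to ZT20, against 1.08, 2.10, 0.61, 1.79, -2.88 and -2.75 for the 9 follicular genes and 0.48, 1.67, 1.01, 1.93, -2.31 and -2.17 for the 11 receptor genes. With outlier spots kept, which brings in Prdm1, the plasma cell medians were 0.26 (ZT4), 0.65 (ZT12) and -0.92 (ZT20). The difference between role groups was not tested.

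**Figure D2:**
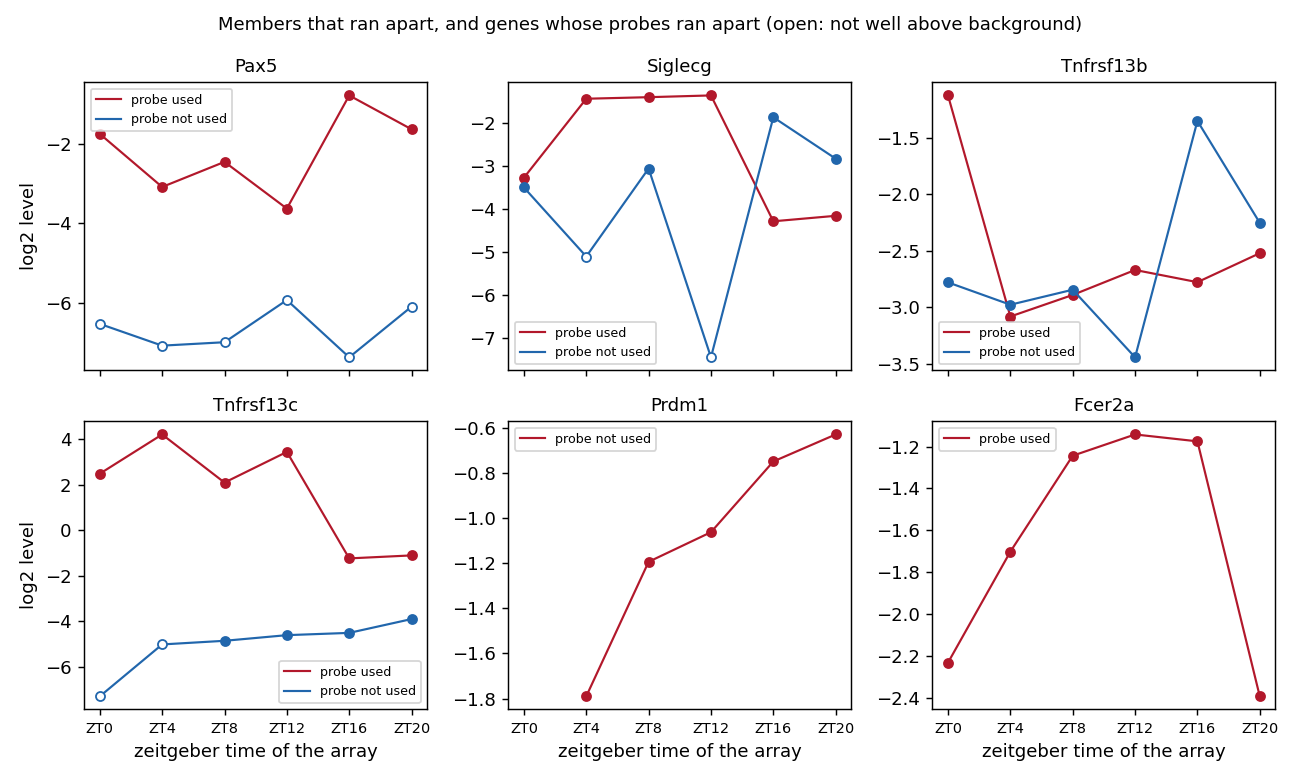
Log2 level (vertical axis, scaled separately for each gene) on each array (horizontal axis, zeitgeber time) for 6 genes, with the probe used in red and a second probe in blue where the gene had one (the single Prdm1 probe was left out of the tests), and open points for spots that did not clear background. The Pax5 probe used is highest at ZT16, Prdm1 stays within 2-fold from ZT8 to ZT20, and the 2 Siglecg probes move in opposite directions.

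Of the 28 genes, 10 had a second probe with values. For Cd72, Cr2 and Bcl11a the second probe was highest at ZT4 and lowest at ZT16 or ZT20 like the first. The second probe of Bank1 was highest at ZT12 but low at ZT4 (-4.13), below its ZT20 level (-4.07), unlike the first. Those of Btk and Cd37 were highest at ZT12 and also lowest at ZT16 or ZT20, although that of Btk did not clear background at ZT4, ZT16 and ZT20. The second probe of Siglecg, well above background on 4 arrays, was highest at ZT16 (-1.88) and did not clear background at ZT4 and ZT12, opposite to the first. The dim second probe of Tnfrsf13c was highest at ZT20 (-3.91), and that of Tnfrsf13b at ZT16 (-1.35). What separates the probes of these genes was not tested.

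Neighbouring arrays were compared by counts of genes. A gene was counted when it was at least 2-fold higher or lower at the later time. At ZT4, 16 of 28 genes were higher than at ZT0, against 27.6% of all genes, and 2 (Pax5 and Tnfrsf13b) were lower, against 21.5%. At ZT8, 16 genes were lower than at ZT4, against 21.3% of all genes, and 1 (Blk) was higher, against 15.9%. At ZT12, 16 were higher than at ZT8, against 13.4% of all genes, with Ly86 first at 1.83 log2 units, and 1 (Pax5) was lower, against 18.4%. With quantile normalization and in the authors' values, 6 and not 16 genes were lower at ZT8 than at ZT4, against 18.0% of all genes in both. In the same 2 settings 6 and not 16 were higher at ZT12 than at ZT8, against 13.5% and 13.7% of all genes. The members thus lay near the share of all genes at ZT8 over ZT4 in these settings. Neighbouring steps share an array, so their counts are not independent. The ZT4 over ZT0 and ZT8 over ZT4 steps each compare arrays from different scans, unlike the later steps.

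The ZT12 and ZT16 arrays, read in the same scan, differed in more of the 28 genes than any other neighbouring pair. At ZT16, 25 of 28 genes were lower than at ZT12, against 20.3% of all genes, with a median difference of -3.83 log2 units against 0.09 over all genes. All 11 receptor genes, 8 of 9 follicular genes, 4 of 5 transcription factors and 2 of 3 plasma cell genes were among the 25. Siglecg was not among them when the mean over its 2 probes was taken (1.32). The difference was -5.78 for Ltb, -5.28 for Btk, -5.14 for Cxcr5 and -5.06 for Cd79b. Pax5 was the 1 gene at least 2-fold higher at ZT16 (2.85), against 22.8% of all genes, and Fcer2a (-0.03) and Tnfrsf13b (-0.11) were within 2-fold. Between ZT16 and ZT20 the levels hardly differed. At ZT20, Cd79a alone was higher (1.11), against 5.04% of all genes, and Fcer2a alone was lower (-1.22), against 2.44%.

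**Figure D3:**
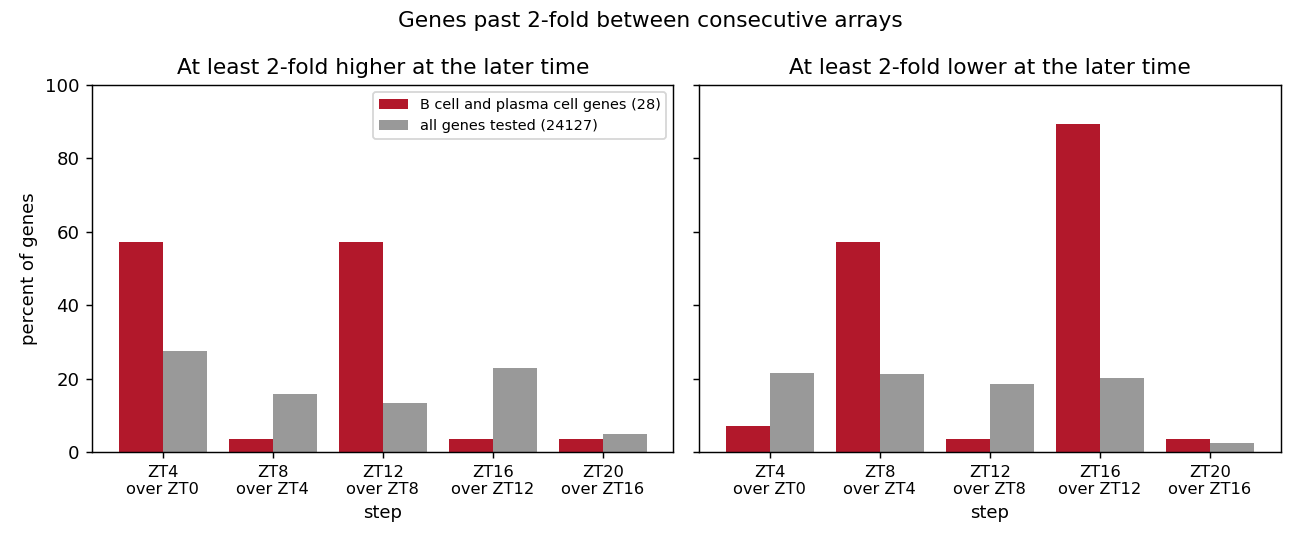
Percent of genes (vertical axis) at least 2-fold higher (left) or lower (right) at the later of 2 consecutive time points (horizontal axis), for the 28 measured B cell and plasma cell genes in red and for all 24127 genes in grey. The red bar for ZT16 over ZT12 on the right stands at 89.3%, against 20.3% of all genes, and both ZT20 over ZT16 steps are low.

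To ask whether any gene followed a 24 h rhythm, a cosine was fitted to each gene over the 6 arrays with limma, which left 3 residual degrees of freedom. After Benjamini-Hochberg adjustment over all genes 0 of the 28 genes passed 0.05 (smallest adjusted p 0.754), as did 0.0% of all genes. At an unadjusted limma p under 0.05 there were 18 of the 28, against 4.0% of all genes. The 18 were 6 receptor genes, 8 follicular genes, 3 transcription factors and Mzb1. The fitted peak minus trough of Ltb was 6.07 ± 1.50 log2 units (SE) with a peak at ZT6.20, that of Cd79b 5.40 ± 1.35 at ZT6.53, that of Cd52 5.57 ± 1.48 at ZT5.82 and that of Siglecg 3.46 ± 0.79 at ZT7.40. Siglecg had the smallest unadjusted limma p of the 28 genes, 0.00976. That fit used 1 of its 2 probes, and the other ran opposite, with its highest level at ZT16 (-1.88). Pax5 had 1.96 ± 0.96 with a peak at ZT19.5, and Tnfrsf13b 1.12 ± 0.85. In 26 of the 28 the fitted peak fell between ZT0 and ZT12, against 10974 of all 24127 genes.

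These counts rested on single arrays. Without the ZT4 array 1 of the 28 genes had an unadjusted limma p under 0.05, against 3.54% of all genes. Without ZT16 there were 3, against 1.73% of all genes, and without ZT20 there were 0, against 1.44%. Without ZT8 there were 22, against 16.7% of all genes, and without ZT12 also 22, against 10.2%, so the share of all genes was higher there too. An F test without shrinkage gave 2 of the 28, against 2.82% of all genes. With scan as a covariate the count was 1, against 1.82% of all genes, in a fit that rests on the ZT8 to ZT20 arrays with 1 residual degree of freedom. The cosine does not describe the dip at ZT8 that most of the genes showed between ZT4 and ZT12.

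Further genes of the receptor pathway were counted in the same way. Of 20 listed kinases, adaptors and co-receptors outside the members, 18 were measured, and 0 passed over all genes. An unadjusted limma p under 0.05 was found for 7, against 4.0% of all genes, the share that also applies to the lists below. The medians of the 18 were 0.52 (ZT0), 1.90 (ZT4), 0.33 (ZT8), 1.78 (ZT12), -2.02 (ZT16) and -1.91 (ZT20). ZT16 and ZT20 were the 2 lowest arrays for 15 of the 18, against 16.4% of all genes. ZT4 and ZT12 were the 2 highest for 13, against 21.3%, and 11 showed both orders, against 9.4%. Against 20.3% of all genes, 17 of the 18 were at least 2-fold lower at ZT16 than at ZT12. The 2 of highest level, Prkcb, protein kinase C beta, and Grb2, an adaptor present in most cells, differed by 2.75-fold and 3.06-fold between their highest and lowest arrays.

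The secretory genes of plasma cells gave a divided picture. All 10 listed genes were measured, 0 passed over all genes, and 1 had an unadjusted limma p under 0.05. Their medians stayed between -0.19 (ZT12) and 0.43 (ZT20). Xbp1, a factor of the secretory programme that endocrine cells also use, varied by 2.40-fold in all. Jchain, the joining chain of secreted antibodies, had 6.08 (ZT0), 6.19 (ZT4), 4.97 (ZT8), 6.16 (ZT12), 2.56 (ZT16) and 1.33 (ZT20), the order of the B cell genes, with 29.0-fold between ZT4 and ZT20. Tnfrsf17, which encodes the plasma cell receptor BCMA and was named after its values were seen, differed by at least 28.2-fold between ZT4 and ZT20, and its ZT16 and ZT20 spots did not clear background. Of the 10, 5 were highest at ZT20 (Derl3, Fkbp11, Creld2, Ell2 and Edem1), against 3667 of all 24127 genes. These are genes of protein folding and secretion or of transcript elongation, picked out after their values were seen. The remaining genes, Sdc1 and Pim2, were highest at ZT4 and ZT8 and differed by 3.63-fold and 8.11-fold between their highest and lowest arrays.

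Markers of other cell types differed between the same arrays. The 14 T cell markers had medians of 0.40, 2.21, 0.62, 2.56, -3.26 and -3.05 from ZT0 to ZT20. Against 20.3% of all genes, 11 of these markers were at least 2-fold lower at ZT16 than at ZT12. Their summed linear signal, in multiples of the array's 75th percentile, ran from 13.7 (ZT20) to 274.8 (ZT4), with Lck at 67.1-fold between ZT4 and ZT16 and Cd3e at 6.09-fold between ZT4 and ZT0. Cd247 did not clear background at ZT4, ZT16 and ZT20, and Cd4 was highest at ZT16 (both picked out after their values were seen). A sum weighs each probe by its brightness, and most of the T cell sum at ZT16 and at ZT20 was the signal of the Cd3e probe. The 28 B cell and plasma cell genes summed to 170.5, 555.8, 140.9, 344.1, 16.1 and 15.4 in the same units. Of 11 macrophage markers 9 were measured, with medians of -0.08, 1.55, 0.00, 1.61, -1.90 and -1.36 and a summed signal from 10.1 (ZT16) to 250.6 (ZT4). Csf1r differed by 21.9-fold between ZT4 and ZT16 and Mpeg1 by 16.0-fold between ZT12 and ZT16.

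Endocrine markers had another order. Their medians (12 of 13 measured) were 1.14 (ZT0), -0.91 (ZT4), 0.17 (ZT8), -2.65 (ZT12), 0.99 (ZT16) and 0.80 (ZT20). Against 5087 of all 24127 genes, 11 of the 12 endocrine markers were lowest at ZT12. The 2 of highest level, Iapp and Ins2, differed by 3.14-fold and 3.49-fold, with Ins2 lowest at ZT0. The part of the T cell, macrophage and endocrine content of the pools in the B cell gene levels was not tested, and with 1 pool per time point, time of day and differences between pools cannot be told apart.

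**Figure D4:**
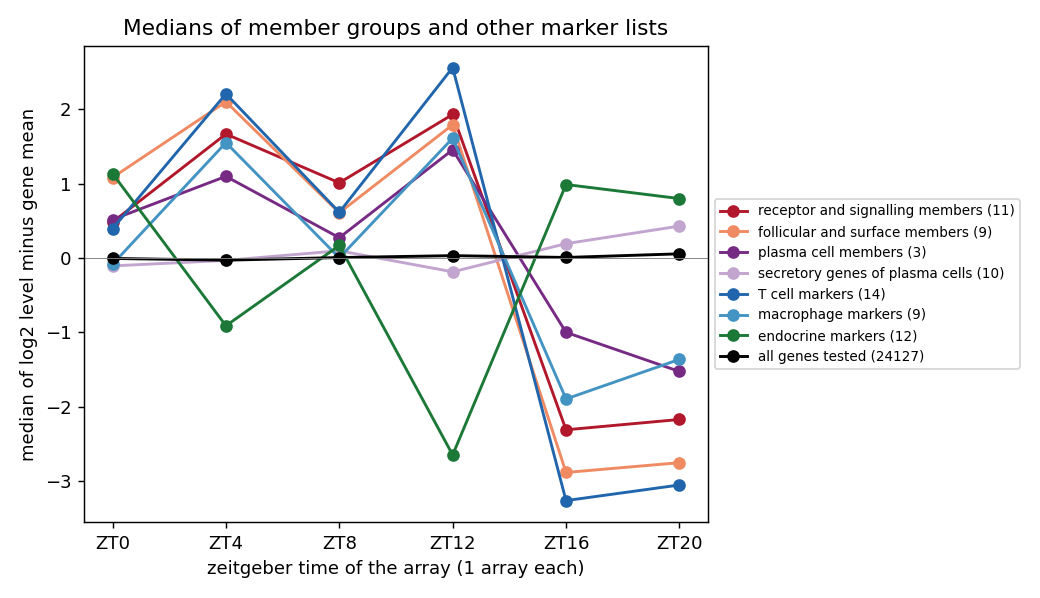
Median over each list of the log2 level minus the gene's own mean (vertical axis, log2 units) on each array (horizontal axis, zeitgeber time), with the number of measured genes in the legend and no error bars because each time point is 1 array. The receptor and follicular genes lie with the T cell and macrophage markers, at or above -0.08 from ZT0 to ZT12 and below -1.3 afterwards, while the endocrine markers are lowest at ZT12.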

How the data were processed

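Each time point's pooled islet RNA was read in the Cy3 channel of 1 Agilent array. The deposited scanner files came from Feature Extraction 11.0.1.1, per the file headers, and their processed intensity is background-subtracted and detrended and not normalized between arrays. The authors' deposited value table held log2 values for 30170 probes; the steps behind it are not given in the sources used here.

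Control and outlier spots were left out and the log2 values of a probe's spots averaged. Of 39429 probes, 27234 (69.1%) took a symbol from RefSeq names of GRCm38.p6 by accession. The array's 75th percentile was subtracted. Probes well above background on at least 3 of 6 arrays, with no array lost to outlier flags, were tested (28795 probes, 24127 genes or unnamed transcripts, the brightest probe of each). A spot not well above background took the higher of its own level and the lowest level of a detected probe on that array in folds and step counts, and such a fold is written "at least". limma 3.58.1 in R 4.3.3 fitted a 24 h cosine, tested on simulated data. Single arrays allow no test of 1 time point against another.

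Members, role groups, lists and tests were chosen with earlier results of these data known. Values on every array were given for the 4 receptor and 4 follicular genes and 3 transcription factors of highest mean level, the plasma cell genes, and genes highest on another array than most or lowest elsewhere than most. For other lists the 2 genes of highest mean level were named. Other lists held receptor pathway, plasma cell secretory, germinal centre, follicle stroma, T cell, macrophage, dendritic, endocrine and acinar genes.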

Additional observations from a re-analysis of the deposited data

How the results depend on the processing

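Results were recomputed with another percentile, quantile normalization, the authors' value table, normexp background correction, filters on dim probes, the mean over probes, outlier spots kept, scan as a covariate, no shrinkage and each array left out. A count was taken as moved when it changed by over 1.5 times and a median when it changed by over 1.5-fold. Of 480 combinations 434 kept and 46 moved. The medians of the 28 genes kept on every array, from 1.52 to 1.84 (ZT4) and from -2.52 to -2.16 (ZT16). Those of the plasma cell genes moved with outlier spots kept, to 0.26 (ZT4), 0.65 (ZT12) and -0.92 (ZT20), and those of the transcription factors with normexp, to -1.60 (ZT16) and -1.61 (ZT20). The adjusted limma test called 0 genes in every setting, so it says nothing of stability. Genes of the 28 with an unadjusted p under 0.05 numbered from 0 to 22 with 1 array left out, 1 with scan as a covariate and 2 without shrinkage, against 18. Over all genes they numbered from 348 to 4026 with 1 array left out and 439 with scan as a covariate, against 965.

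With the percentile over detected probes, 3 genes were higher at ZT8 than at ZT4, against 27.0% of all genes. In that setting 6 were higher at ZT12 than at ZT8, against 6.58%, so the share of all genes was lower there too. With quantile normalization and with the authors' values alike, 6 were lower at ZT8 than at ZT4, against 18.0% of all genes in both. At ZT12, 6 were higher than at ZT8, against 13.5% and 13.7%, and 0 lower, against 15.2% and 14.2%. At ZT20, 0 were higher than at ZT16, against 4.04% and 4.03%. With the authors' values 1 was lower at ZT4 than at ZT0, against 17.9%. With the mean over probes, 4 were higher at ZT8 than at ZT4, against 17.0% of all genes, and 2 lower at ZT12 than at ZT8, against 18.5%. In that setting 2 were higher at ZT16 than at ZT12, against 22.7%, as Siglecg then had 1.32. With normexp, 1 was lower at ZT4 than at ZT0, against 12.6% of all genes, and 0 higher at ZT8 than at ZT4, against 7.45%. That setting also had 0 lower at ZT12 than at ZT8, against 11.4%, and 0 higher at ZT20 than at ZT16, against 2.75%. With probes detected on all arrays, 0 were higher at ZT8 than at ZT4, against 15.6% of all genes. The count lower at ZT16 than at ZT12 kept in every setting run, against 15.7% to 22.0% of all genes. The cause was not tested. No paired analysis was possible because each time point has 1 array. Dim probes limit Blk, Cd180 and Ebf1 to bounds.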

Other observations

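Genes of lymphoid follicles outside B cells were also measured. Of 8 listed follicle stroma and homing genes 7 were measured, with medians of 0.52 (ZT0), 2.02 (ZT4), 0.32 (ZT8), 2.16 (ZT12), -2.20 (ZT16) and -2.35 (ZT20), and all 7 had ZT16 and ZT20 as their lowest arrays, against 16.4% of all genes. Madcam1, an addressin of mucosal venules and lymphoid stroma, was 64.6-fold higher at ZT4 than at ZT16, and Mfge8, a bridging protein of phagocytes and follicular dendritic cells, 22.7-fold higher at ZT4 than at ZT20. Ccl19, a chemokine of T cell zones named after its values were seen, was 62.2-fold higher at ZT12 than at ZT16, whereas Cxcl13, the ligand of CXCR5 and also named afterwards, differed by 3.68-fold between the same arrays. No gene of the list passed over all genes, and 4 had an unadjusted limma p under 0.05.

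The 7 germinal centre genes, which mark B cells under selection and dividing cells, had medians of 0.57, 0.96, 0.04, 1.49, -1.67 and -1.47 from ZT0 to ZT20, with 13.5-fold between ZT4 and ZT16 for Bcl6 and 8.42-fold between ZT12 and ZT20 for Mki67, and 0 had an unadjusted limma p under 0.05. The 7 dendritic cell genes had medians of 0.45, 1.50, 0.24, 1.89, -2.23 and -1.84, with 79.3-fold for Ccr7 and 14.6-fold for Itgax between highest and lowest arrays, and 2 at an unadjusted limma p under 0.05. Acinar genes (7 of 8 measured) ran from -1.43 (ZT12) to 0.51 (ZT4), with 5.65-fold for Ctrb1 and 3.33-fold for Cpa1, and 1 at an unadjusted limma p under 0.05.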
